A study of Homo sapiens with 2 samples.

Results

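Transcripts of heat shock proteins, of the J-proteins that work with them and of the cytosolic chaperonin were compared between cells of an oral cancer line carrying a RUNX2 vector and cells carrying an empty vector. The members were the genes whose probe sets had as their only annotated symbol an HSPA, HSPB, HSPD, HSPE, HSPH, HSP90, DNAJ or CCT name with its number or letter code, leaving out HSPBAP1, HSPBP1, antisense and read-through transcripts and pseudogenes. These were 76 genes with 179 probe sets, of 19775 genes with a probe set of their own symbol. Of the 76 members, 64 were measured, which means that at least 1 of their probe sets exceeded the median of its array, against 12729 measured genes in all.

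Ca9-22 is a cell line from a gingival carcinoma. One culture had been stably transduced with a RUNX2 expression vector and the other with an empty vector, and both had been selected with blasticidin for 2 weeks. RUNX2 is a transcription factor with a runt domain, known for its part in bone formation. Whether the transduced cells were pools or clones is not given in the sources used here. Each group was 1 Affymetrix array of biotin-labelled RNA, so there are no replicates, no test and no p-value. How precise any value below is depends on this number of arrays.

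Chaperones bind unfolded or partly folded proteins and keep them from clumping. HSP70 proteins hold a client in a cycle of ATP binding and hydrolysis: a J-protein (DNAJ) brings the client and starts hydrolysis, and an exchange factor such as an HSP110 protein resets the cycle. HSP90 finishes the folding of kinases and steroid receptors, the CCT ring folds actin and tubulin in a closed chamber, HSP60 with its lid HSP10 does the same work for proteins inside the mitochondrion, and small heat shock proteins hold unfolded proteins without ATP. Heat shock factor HSF1 drives many of the cytosolic genes through heat shock elements, repeats of GAA and TTC in their promoters, while the chaperones of the endoplasmic reticulum (ER) answer to the unfolded protein response through ER stress elements.

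The heat shock element was searched as its 3-unit form, GAANNTTCNNGAA, on both strands in the 250 bases before each annotated gene start. Promoters of 68 of the 76 members were in the RefSeq-derived table used (GRCh38.p14), some genes with several starts. The 3-unit form stood in 5 of these 68 members (7.35%) and in 0.557% of all 27305 genes with a promoter in the table. The shorter 2-unit forms GAANNTTC and TTCNNGAA, both contained in the 3-unit form, stood in 19 of 68 members (27.9%) and in 14.0% of all genes. The ER stress element, searched as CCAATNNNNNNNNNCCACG, stood in 2 members, HSPA5 and HSP90B1, and in 0.0916% of all genes. A match is a description of the letters and not a shown binding site. The windows below are 80 bases each, on the gene's strand, with the matched element in capitals. They are shown because the measured genes that carry these elements differ in their ratios, as given further on. The first 5 carry the 3-unit form, the next pair a 2-unit form alone, and the last pair the ER stress element.
DNAJB6 (chr7:157336839-157336918, plus strand): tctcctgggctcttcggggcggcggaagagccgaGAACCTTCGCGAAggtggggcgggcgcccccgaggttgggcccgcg
HSP90AA1 (chr14:102087087-102087166, minus strand): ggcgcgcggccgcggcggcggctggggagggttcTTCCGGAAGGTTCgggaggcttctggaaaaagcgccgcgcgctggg
HSP90AB1 (chr6:44247744-44247823, plus strand): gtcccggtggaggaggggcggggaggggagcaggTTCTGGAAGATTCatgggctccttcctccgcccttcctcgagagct
HSPD1 (chr2:197500011-197500090, minus strand): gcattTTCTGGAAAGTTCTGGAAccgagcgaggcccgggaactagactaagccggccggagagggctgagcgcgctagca
HSPA6 (chr1:161524432-161524511, plus strand): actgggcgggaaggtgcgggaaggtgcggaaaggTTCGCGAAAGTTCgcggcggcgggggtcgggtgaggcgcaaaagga
DNAJA1 (chr9:33025039-33025118, plus strand): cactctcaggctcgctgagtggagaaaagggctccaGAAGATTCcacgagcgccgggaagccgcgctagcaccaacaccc
HSPB8 (chr12:119178807-119178886, plus strand): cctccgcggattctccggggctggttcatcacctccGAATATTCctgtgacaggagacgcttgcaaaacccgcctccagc
HSPA5 (chr9:125241361-125241440, minus strand): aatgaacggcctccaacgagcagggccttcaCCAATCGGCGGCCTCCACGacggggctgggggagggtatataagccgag
HSP90B1 (chr12:103930185-103930264, plus strand): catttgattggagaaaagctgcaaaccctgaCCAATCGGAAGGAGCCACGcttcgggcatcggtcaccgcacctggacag

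The targeted gene does not settle the array labels. Of the 3 measured RUNX2 probe sets, 2 were higher on the array labelled RUNX2, at 854 against 204 on the empty vector array and at 353 against 102. The brightest was lower, at 433 on the array labelled RUNX2 and 1746 on the empty vector array. Directions therefore rest on the labels alone. Markers of the labelled cell type were present: all 5 listed genes of stratified epithelium with a probe set of their own were measured. Their summed level was 34248 on the array labelled RUNX2 and 25506 on the empty vector array, mostly from KRT5 and SFN. In their brightest probe sets KRT5 read 12580 and 8842, SFN 14689.5 and 10612.5, and KRT14 1579 and 586. CDH1 read 3580 and 3545, and DSG3 was lower on the array labelled RUNX2, at 1819 and 1919. Of the 6 fibroblast markers 1 was measured, COL1A1, at 1553 on the array labelled RUNX2 and 1937 on the empty vector array in its brightest probe set. The other measured probe sets of COL1A1 were far dimmer, from 59.3 and 71.4 up to 152 and 200. The other 5 fibroblast markers were below the floor. Of the 4 endothelial markers 2 were measured, near the floor (PECAM1 and VWF), and of the 3 leukocyte markers with a probe set of their own 0 were. The part of these marker differences in the chaperone values was not tested.

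Levels are in arbitrary units, with a factor of 0.966 on the array labelled RUNX2 that gives both arrays the same trimmed mean, and log2 ratios are the array labelled RUNX2 over the empty vector array. Values under the median of their array (51.8 on the array labelled RUNX2 and 55.3 on the empty vector array) were raised to it, and a ratio against such a value is a bound. Each gene is given by its brightest measured probe set. Over all genes, ratios of probe sets of the same gene differed with a pooled SD of 0.29 on the log2 scale, which is a spread within the arrays and not a replicate error. Over the 42 members with at least 2 measured probe sets it was 0.24.

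As a set, the chaperone genes sat slightly high. Over the 64 measured members the log2 ratio had a median of 0.13, against -0.06 for all measured genes. A ratio above 0 was found in 47 of 64 members (73.4%), against 42.7% of all genes, and 50 of 64 members lay above the median of all genes. At 2-fold, 1 member was higher, against 1.42% of all genes, and 0 were lower, against 1.47%. At 1.5-fold, 7 members were higher, against 5.77% of all genes, and 1 was lower, against 6.88%. Above percentile 90 of the ratios of all genes stood 13 members, and 3 stood at or below percentile 10. With arrays scaled to equal medians, 12 members were at least 1.5-fold higher and 1 lower, while the split over all genes turned to 8.19% higher and 4.75% lower. Over the alternatives in processing given at the end, the number of members at least 1.5-fold higher ran from 5 to 12. The share of all genes at least 1.5-fold higher ran from 3.86% to 8.19%.

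**Figure D1:**
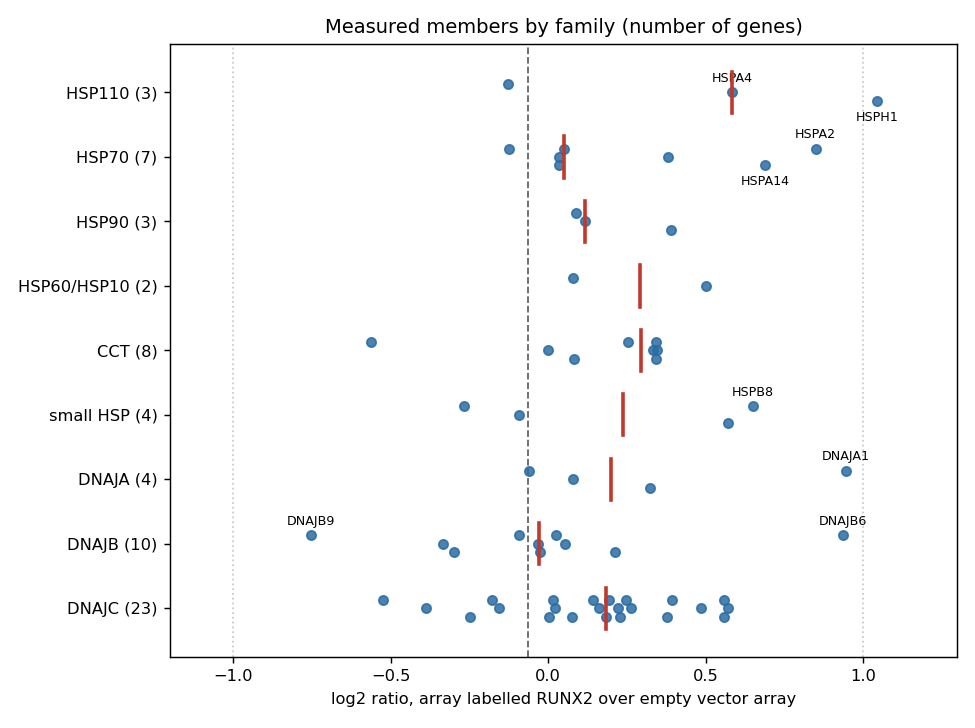
Log2 ratio of the level on the array labelled RUNX2 over that on the empty vector array, for each measured member (points), by family, with the number of genes in brackets. Red bars are family medians, the dashed line is the median of all measured genes (-0.06) and dotted lines mark 2-fold. HSPH1 is the 1 gene past 2-fold, and DNAJB9 is the lowest at -0.75.

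HSP110 proteins, the exchange factors of HSP70, held the widest ratio of the whole set. HSPH1 (HSP105) had a level of 1783 on the array labelled RUNX2 and 863 on the empty vector array, 2.06-fold higher, at percentile 98.7 of all measured genes. Its other probe sets read 652 and 286 and, more dimly, 127 and 65.7, with log2 ratios of 1.19 and 0.96. All 3 probe sets of HSPH1 thus lay near or above 2-fold. HSPA4 (APG-2) read 1190 on the array labelled RUNX2 and 793 on the empty vector array, a log2 ratio of 0.59, just past 1.5-fold. The log2 ratios of its other 3 probe sets were between 0.27 and 0.67, so all 4 were above 0. HSPA4L, the third HSP110 gene, did not follow: its brightest probe set read 420 and 459, a log2 ratio of -0.13, and its other one 396 and 290, a ratio of 0.45.

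Among the HSP70 proteins proper, ratios above 1.5-fold were found in HSPA2 and HSPA14. HSPA2, best known for its part in sperm formation and present in keratinocytes, read 422 on the array labelled RUNX2 and 234 on the empty vector array in its only probe set, 1.80-fold higher. HSPA14, a partner of a ribosome-bound J-protein, read 595 and 369 in its brightest probe set, 1.61-fold higher. The other probe sets of HSPA14 had log2 ratios of 0.62 and 0.09, so 1 of the 3 showed little difference. HSPA9 (mortalin), the HSP70 of the mitochondrial matrix, read 2278 and 1748, a log2 ratio of 0.38, with 0.64 and 0.67 in its other measured probe sets.

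The HSP70 genes of the ER had smaller ratios. HSPA5 (BiP), the main ER chaperone and a textbook mark of the unfolded protein response, read 7833 on the array labelled RUNX2 and 7653 on the empty vector array, 0.03 on the log2 scale, with -0.13 in its other probe set. HSPA13, a small ER-associated relative, had -0.12 in its brightest probe set and 0.53 in the other. HSPA12A at 0.05 and HSPA1L at 0.04 were dim, with levels of 102 and 98.8 for HSPA12A and of 70.4 and 68.7 for HSPA1L. HSPA6, a strictly heat-inducible HSP70 whose promoter window is shown above, stayed under the floor on both arrays, at no more than 44.7 on the array labelled RUNX2 and 46.7 on the empty vector array. HSPA12B was also below the floor.

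The best-known HSP70 genes are not members, because the annotation gives their probe sets several symbols and no gene was read from such a probe set. The 4 probe sets annotated jointly to HSPA8 and to SNORD14C and SNORD14D had log2 ratios between 1.04 and 1.44, and 1 of them read 7400 on the array labelled RUNX2 and 2737 on the empty vector array. HSPA8 encodes HSC70, the constitutive HSP70 of the cytosol. The 3 probe sets annotated jointly to HSPA1A and HSPA1B, 1 of them to HSPA1L as well, had log2 ratios of 0.22, 0.28 and 0.22, and the brightest of them read 5851 on the array labelled RUNX2 and 5007 on the empty vector array. All 4 of the first group were past 2-fold and all 3 of the second were under 1.5-fold. These joint probe sets were singled out after their values were seen, and they enter no count given here.

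**Figure D2:**
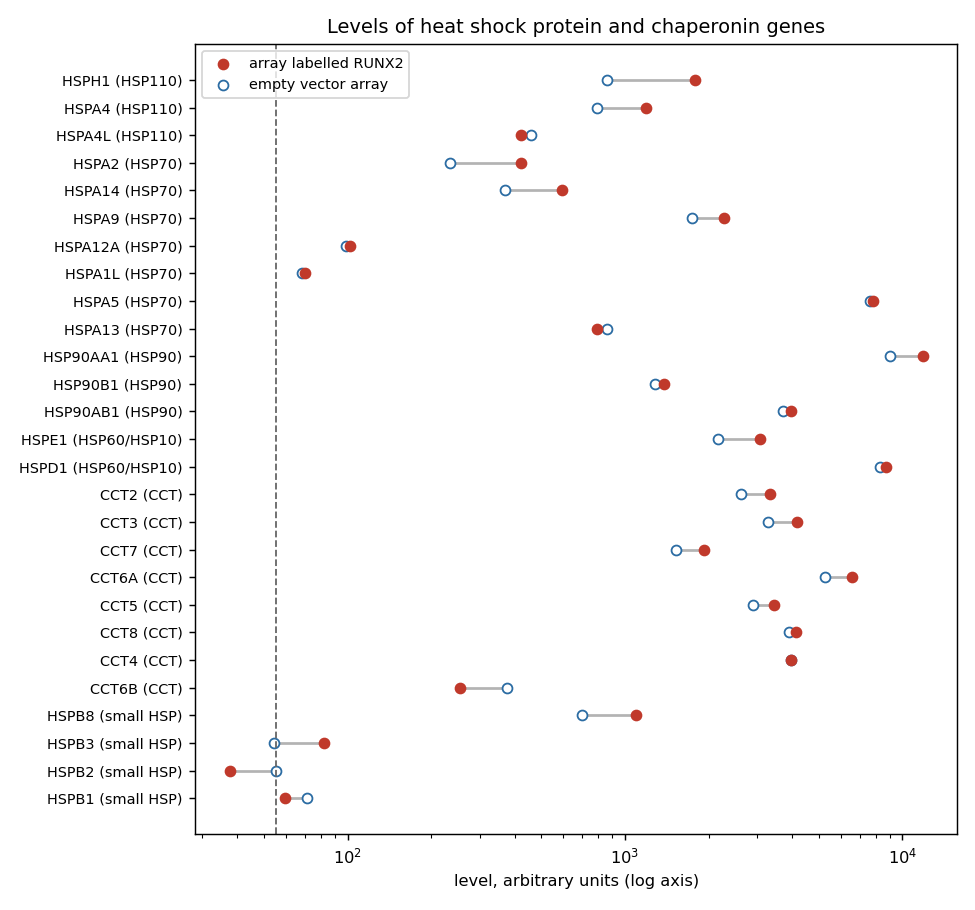
Level of each measured heat shock protein and chaperonin gene on the array labelled RUNX2 (filled) and on the empty vector array (open), in arbitrary units on a log axis, with a grey line joining the values of a gene. The dashed line is the higher of the arrays' floors (55.3). Levels of different genes come from different probes and are not comparable. The widest gap is in HSPH1 (1783 and 863), while HSPA5 (7833 and 7653) and CCT4 (3961 and 3959) nearly coincide.

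The 3 HSP90 genes had small ratios, all above 0. HSP90AA1, the heat-inducible cytosolic form, read 11835 on the array labelled RUNX2 and 9020 on the empty vector array, 1.31-fold higher, and its other 3 probe sets had log2 ratios of 0.35, 0.46 and 0.63. HSP90AB1, the constitutive cytosolic form, read 3955 and 3722, a log2 ratio of 0.09, with 0.09 and 0.15 in its others. Every probe set of HSP90AA1 had a wider ratio than every probe set of HSP90AB1, with the 3-unit heat shock element in both promoters. HSP90B1 (GRP94), the ER form, read 1386 and 1279, a ratio of 0.12, and 313 and 358 in its other probe set, a ratio of -0.19. The 2 brighter probe sets annotated jointly to HSP90B1 and a microRNA gave 0.09 and -0.09.

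Inside the mitochondrion, HSPE1 and HSPD1 form the HSP10 and HSP60 parts of the same chaperonin and share a promoter region in the human genome. HSPE1 read 3057 on the array labelled RUNX2 and 2158 on the empty vector array in its only probe set, 1.42-fold higher. HSPD1 read 8744 and 8271 in its brightest probe set, 1.06-fold higher, and 0.15 on the log2 scale in the next brightest. Dim probe sets of HSPD1, which did not reach the floor with the empty vector, gave bounds of 0.62 and 0.44. The ratios of these partner genes were 0.50 for HSPE1 and 0.08 for HSPD1 on the log2 scale. The bound of 0.62 from a dim probe set of HSPD1 exceeded the ratio of HSPE1, and the gap between the genes was not tested.

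The CCT chaperonin is a ring of 8 different subunits, and TCP1, the first of them, had no probe set of its own symbol. The 7 other ring genes had log2 ratios from 0.00 to 0.34 in their brightest probe sets. CCT2 read 3326 on the array labelled RUNX2 and 2620 on the empty vector array, CCT3 read 4170 and 3288, CCT7 read 1928 and 1522, and CCT6A read 6597 and 5236. These 4 had nearly equal ratios in their brightest probe sets, at 0.34, 0.34, 0.34 and 0.33. The near equality did not hold in the other probe sets of CCT2, at 0.52, and CCT6A, at 0.22. CCT5 followed at 0.25, CCT8 at 0.08 and CCT4 at 0.00, with levels of 3961 and 3959 for CCT4. Far dimmer probe sets gave 0.08 for CCT5 and -0.23 for CCT4. None of the 7 passed 1.5-fold. With 5.77% of all measured genes higher and 6.88% lower, this is not read as a result about the ring. CCT6B, the testis form of the CCT6 subunit, went the other way, at 254 and 375, 1.48-fold lower. CCT8L2, a testis-specific relative, was below the floor on both arrays.

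Small heat shock proteins were mostly dim. HSPB8, which works with BAG3 in the removal of misfolded proteins by autophagy, was the bright one. It read 1096 on the array labelled RUNX2 and 698 on the empty vector array, 1.57-fold higher, and 306 and 134 in its other probe set, a log2 ratio of 1.19. Both probe sets of HSPB8 were past 1.5-fold. HSPB1 (HSP27) was close to the floor in its only probe set, at 59.4 and 71.6, a ratio of -0.27. HSPB3, a muscle form, read 82.1 on the array labelled RUNX2 and lay under the floor on the empty vector array, at least 1.48-fold higher. HSPB2 was under the floor on the array labelled RUNX2 and just over it on the empty vector array (37.6 and 55.3), a bound of -0.09, and HSPB6, HSPB7 and HSPB9 were under it on both.

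Class A and class B J-proteins, the general partners of HSP70, held a few wide ratios among many small ones. DNAJA1, a main partner of HSC70, read 2101 on the array labelled RUNX2 and 1092 on the empty vector array, 1.92-fold higher, with 1072 and 686 in its other probe set. Both probe sets of DNAJA1 were past 1.5-fold. DNAJA2 was split, with 0.32 in its brightest probe set and -0.45 in the other. DNAJA4 was split as well, with 0.08, 0.61 and -0.20.

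DNAJB6, which keeps polyglutamine proteins from aggregating, read 644 and 336 in its own probe set, 1.91-fold higher. Probe sets annotated jointly to DNAJB6 and TMEM135 went the other way, at 1415 on the array labelled RUNX2 and 1823 on the empty vector array, and at 1119 and 1265. The ratio of DNAJB6 therefore rests on 1 probe set. DNAJB1 (HSP40), a classic heat-inducible gene, read 2202 and 2243, -0.03 on the log2 scale, and 0.09 in its other probe set. DNAJB4, a close relative of DNAJB1, had -0.33 and -0.07, and DNAJB2 -0.09. DNAJB5 at -0.03 and DNAJB13, a bound of 0.05, were near the floor, and DNAJB7 and DNAJB8 were below it.

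DNAJB9 (ERdj4), an ER J-protein that holds BiP on the stress sensor IRE1, was the 1 member at least 1.5-fold lower. It read 729 on the array labelled RUNX2 and 1229 on the empty vector array, a log2 ratio of -0.75. Its other probe sets read 231 and 430, and 242 and 386, with ratios of -0.90 and -0.67. All 3 probe sets of DNAJB9 were thus at least 1.5-fold lower. The other ER J-proteins of class B did not share its size: DNAJB11 (ERdj3) had 0.21, DNAJB12 had 0.02 and DNAJB14 had -0.30, the last pair being ER membrane proteins.

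Class C J-proteins have specialised tasks, and none of the 23 measured ones passed 1.5-fold in its brightest probe set. Of all measured genes, 5.77% were at least 1.5-fold higher and 6.88% lower. The median log2 ratio of the class C genes was 0.18, and 18 of 23 were above 0, against 42.7% of all genes. DNAJC2 (ZRF1), the ribosome-bound partner of HSPA14, was the highest, at 862 on the array labelled RUNX2 and 580 on the empty vector array, a ratio of 0.57. DNAJC9, a histone chaperone that is linked to replication, read 1281 and 915, a ratio of 0.48, with 0.67 in its other probe set. DNAJC5, the cysteine string protein of secretory vesicles, had 0.38, with 0.46 and 0.53 in its others. The lowest was DNAJC27, a small GTPase with a J domain, at 253 and 364, a ratio of -0.52, with -0.69 in its other measured probe set. DNAJC24, needed to make diphthamide, had -0.39. The others outside ER and mitochondrion lay between these. DNAJC13, an endosomal protein, had 0.23, DNAJC18 0.22, DNAJC7, which binds HSP70 and HSP90 through its repeats, 0.19, DNAJC17 0.16 and DNAJC6 (auxilin), which uncoats clathrin vesicles, 0.14. DNAJC8, a nuclear protein, had 0.08 in its brightest probe set and 0.34 and 0.75 in dimmer ones. DNAJC21, which acts in ribosome biogenesis, had 0.00, DNAJC4 -0.18 and DNAJC12, a partner of aromatic amino acid hydroxylases, -0.25.

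ER J-proteins of class C had ratios close to 0. DNAJC10 (ERdj5), a disulfide reductase, had 0.18, DNAJC14 had 0.25, and DNAJC1 and DNAJC16 both had 0.02. DNAJC3 (p58IPK), a BiP co-chaperone, had -0.16 in its brightest probe set (1362 on the array labelled RUNX2 and 1517 on the empty vector array), with 0.24, 0.35 and 0.37 in dimmer ones. Mitochondrial J-proteins had DNAJC11 at 0.56, DNAJC30 at 0.56, DNAJC19, a part of the import motor, at 0.26 and DNAJA3 at -0.06. The ratios of DNAJC11 and DNAJC30 did not repeat in their other measured probe sets, at 0.09 and -0.20. DNAJC15, DNAJC28, DNAJC5B and DNAJC5G were below the floor on both arrays.

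**Figure D3:**
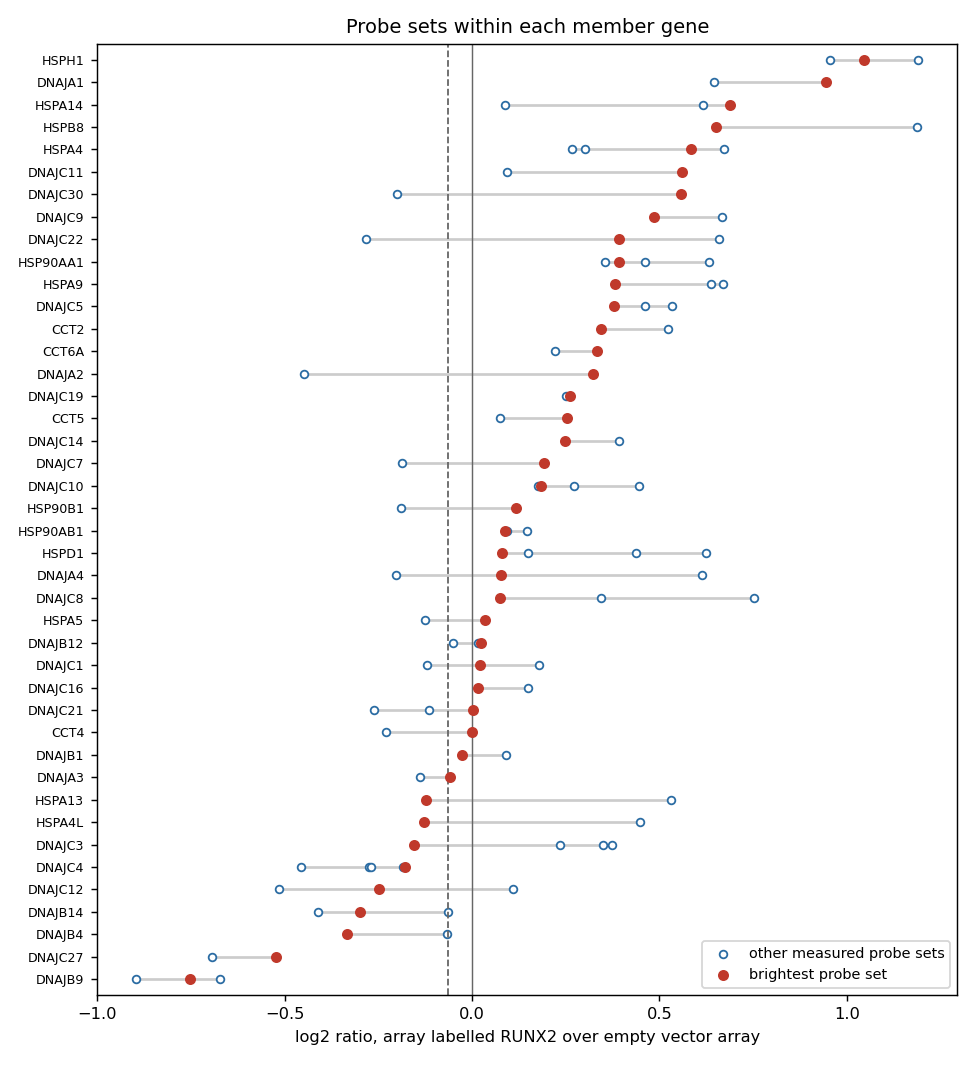
Log2 ratio of every measured probe set of the 42 members with 2 or more measured probe sets, with the brightest in red and the others open. The solid line is 0 and the dashed line the median of all measured genes (-0.06). All probe sets of HSPH1, DNAJA1 and HSPB8 lie at least 1.5-fold to the right and all of DNAJB9 at least 1.5-fold to the left, while 16 of the 42 genes have probe sets on both sides of 0.

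Agreement between probe sets picks out few members. Of the 42 members with at least 2 measured probe sets, 26 had all of them on the same side of 0 and 16 did not. In 3 members, HSPH1, DNAJA1 and HSPB8, every measured probe set was at least 1.5-fold higher, and in 1, DNAJB9, every one was at least 1.5-fold lower. Such counts were not made over all genes, so they are not read as particular to the members. The widest range within a member was 0.94 on the log2 scale, in DNAJC22, which had probe sets at 0.66, 0.39 and -0.28.

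By compartment, the mitochondrial and the cytosolic and nuclear members lay above those of the ER. The 36 measured members of cytosol and nucleus had a median log2 ratio of 0.18, and 7 of them were at least 1.5-fold higher and 0 lower. Of all measured genes, 5.77% were at least 1.5-fold higher and 6.88% lower. The 7 mitochondrial members had a median of 0.38, with 6 above 0 and 0 past 1.5-fold. The 12 ER members had a median of 0.02, from -0.75 in DNAJB9 to 0.25 in DNAJC14, and 0 of them were at least 1.5-fold higher. In groups this small a count of 0 differs little from the share of all genes. The 3 measured members of vesicles and endosomes ran from 0.14 in DNAJC6 to 0.38 in DNAJC5, and the 6 with no compartment assigned had a median of -0.21. Within cytosol and nucleus, the 21 heat shock protein and chaperonin genes had a median of 0.33 and the 15 J-protein genes one of 0.08. With 1 array a group, the differences between these medians were not tested.

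**Figure D4:**
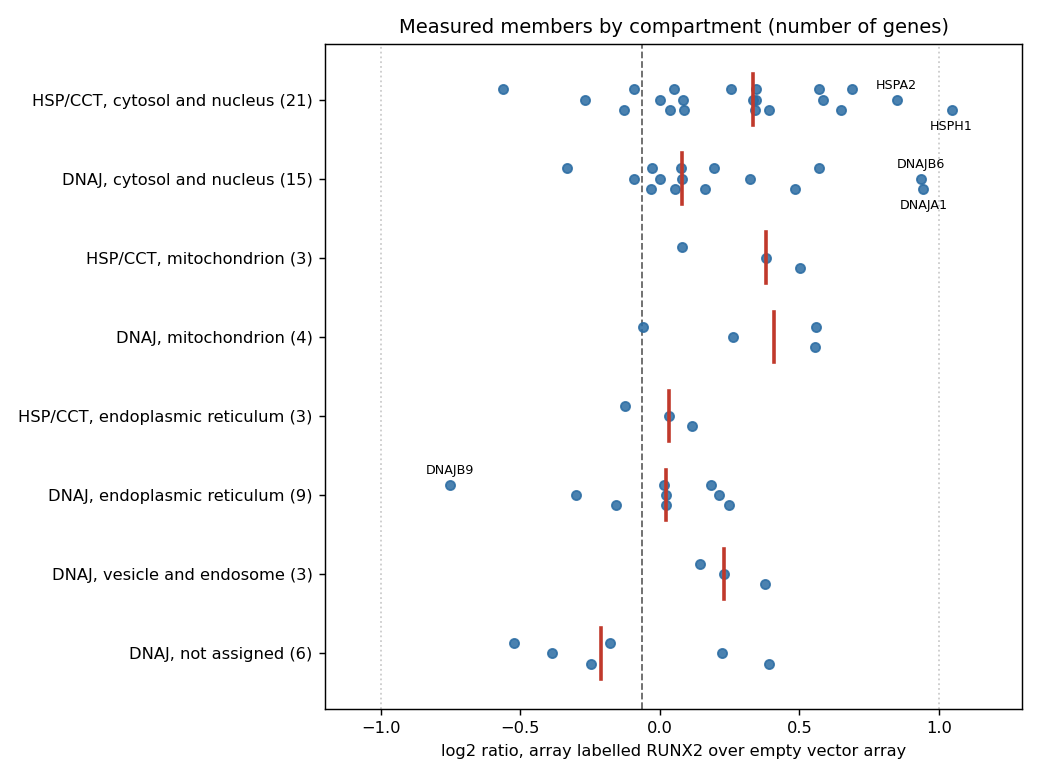
Log2 ratio of each measured member by compartment, with heat shock protein and chaperonin genes (HSP/CCT) and J-protein genes (DNAJ) in separate rows. Red bars are medians, the dashed line is the median of all measured genes (-0.06) and dotted lines mark 2-fold. Points of the ER rows centre on 0.03 and 0.02, and those of the mitochondrial rows on 0.38 and 0.41.

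The members listed as heat-inducible had widely different ratios. Of 12 such genes with a probe set of their own, 11 were measured, and HSPA6 was not. The list held HSPH1, DNAJA1, HSPB8, HSPE1, HSP90AA1, HSP90AB1, HSPD1, DNAJB1, HSPA4L, HSPB1, DNAJB4 and HSPA6. It thus included HSP90AB1, named above as the constitutive form. The median log2 ratio of the measured genes was 0.09, which is the ratio of HSP90AB1 itself. This median rests on the choice of probe sets and floor: it was 0.24 with a floor at the 75th percentile and 0.54 without probe sets ending in _x_at or _s_at, where all members had a median of 0.13 in both cases, and 0.32 with the mean over probe sets, where all members had 0.16. HSPH1, DNAJA1 and HSPB8 were at least 1.5-fold higher, which is 3 of the 11, against 5.77% of all measured genes. At least 1.5-fold lower were 0, against 6.88% of all measured genes. HSPB1, close to the floor in its only probe set, and DNAJB4 had ratios below 0. So did HSPA4L, which stood above 0 in the mean over its probe sets (0.16), and DNAJB1, which stood above 0 in that mean (0.03), without a factor between arrays (0.02) and with equal medians (0.07). Genes with the promoter letters also spanned a wide range. The 4 measured members with the 3-unit heat shock element were DNAJB6 at 0.94, HSP90AA1 at 0.39, HSP90AB1 at 0.09 and HSPD1 at 0.08. The value of DNAJB6 rests on 1 probe set. Brighter probe sets annotated jointly to DNAJB6 and TMEM135 went the other way, at -0.37 and -0.18. The 15 measured members with a 2-unit form had a median of 0.08, and the 43 without one a median of 0.16. At 1.5-fold, 3 of the 15 and 3 of the 43 were higher, against 5.77% of all measured genes. Median and count thus order these groups differently, and the difference was not tested. HSPE1, which shares a promoter region with HSPD1, was counted among the 43. HSPH1 had neither form in the window searched, which says nothing about HSF1 at this gene. HSPA5 and HSP90B1, with the ER stress element, had ratios of 0.03 and 0.12.

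Regulators, co-chaperones and partners were taken from lists chosen with earlier results of these arrays known. Of 63 listed genes, 57 had a probe set of their own symbol and 56 were measured, with a median log2 ratio of 0.10. At 1.5-fold, 3 of the 56 were higher, a share close to the 5.77% of all measured genes, and 1 was lower, against 6.88% of all measured genes. HSF1, the main heat shock factor, read 204 on the array labelled RUNX2 and 223 on the empty vector array, a ratio of -0.13. HSBP1, which binds HSF1, had 0.07, and HSF2BP, a partner of HSF2, was 1.71-fold lower, at 75.3 on the array labelled RUNX2 and 128 on the empty vector array. HSF2 had no probe set of its own symbol.

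The 3 higher genes were partners of cytosolic HSP70 or HSP90, and their number is not read as a result about these partners. CHORDC1, an HSP90 co-chaperone, read 1424 on the array labelled RUNX2 and 854 on the empty vector array, 1.67-fold higher. STIP1 (HOP), which passes clients on between HSP70 and HSP90, read 862 and 552, 1.56-fold higher, with 0.63 on the log2 scale in its other probe set. TTC4, another HSP90 co-chaperone, had a log2 ratio of 0.59, just past 1.5-fold. The 11 HSP70 co-chaperones had a median log2 ratio of 0.20, and the 12 HSP90 co-chaperones one of 0.24.

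ER and mitochondrial partners had 0 genes past 1.5-fold. With 5.77% of all measured genes higher and 6.88% lower, a count of 0 in lists this short is not read as a result. The 12 ER partners had a median log2 ratio of 0.04, with HYOU1, the ER exchange factor of the HSP110 type, at 0.17. The 10 mitochondrial partners had a median of -0.05, with TRAP1, the HSP90 of the mitochondrion, at -0.36 and GRPEL1, an exchange factor of HSPA9, at 0.31. The 5 measured prefoldin genes, which hand clients to CCT, had a median of 0.00.

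**Figure D5:**
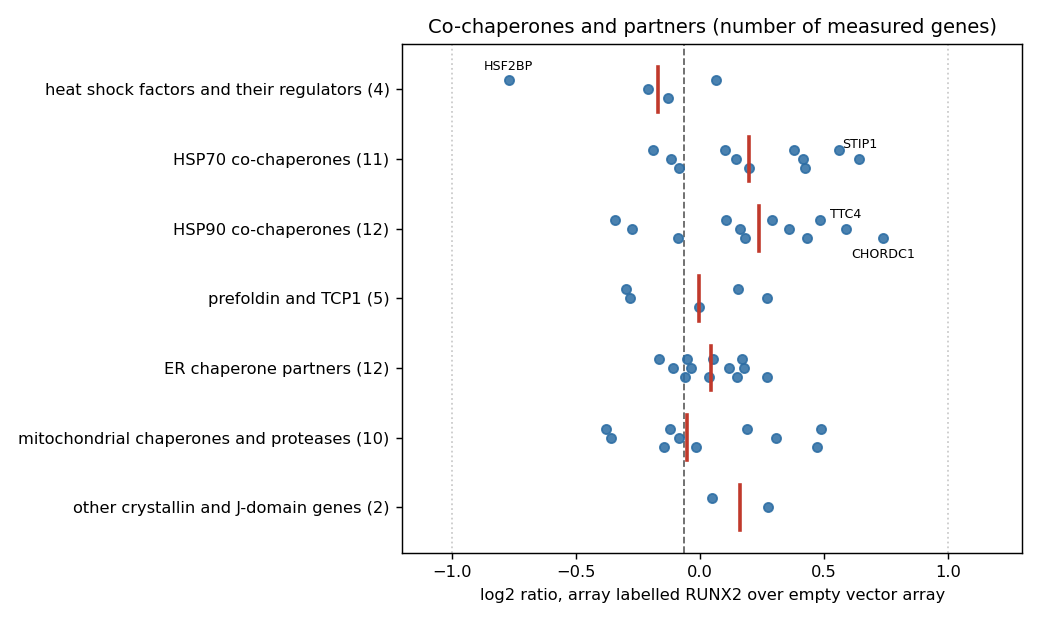
Log2 ratio of each measured regulator, co-chaperone or partner gene, by list, on the scale of the plots of the members. Red bars are list medians and the dashed line is the median of all measured genes (-0.06). CHORDC1, STIP1 and TTC4 lie furthest right and HSF2BP furthest left, and the ER partners lie between -0.16 and 0.27.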

How the data were processed

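The deposited values are linear intensities, 1 for each of 54675 probe sets on each array, which the authors made with MAS5, per the submitters' processing notes. Version and scaling target are not given in the sources used here. The 62 control probe sets were removed. The array labelled RUNX2 was scaled to the 2% trimmed mean of the empty vector array and each array was floored at its median. Samples were grouped by title. Genes were named from the platform annotation, with symbols updated through Entrez IDs and a RefSeq table (GRCh38.p14), and the brightest measured probe set stood for a gene. Compartments, heat-inducible genes and partner lists were written by hand, and the members and lists were chosen with earlier results of these data known. Named were all measured members outside the DNAJ family, DNAJ genes at least 1.5-fold either way or at an end of their compartment, partners at least 1.5-fold either way, and a few regulators. Other DNAJ genes, GRPEL1, HSBP1 and the joint probe sets were named after their values were seen. There were 10 alternatives: other scalings, floors and choices of probe set. Steps ran in Python 3.11.15 with numpy, pandas and statsmodels and were tested on simulated arrays.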

Additional observations from a re-analysis of the deposited data

How the results depend on the processing

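No paired analysis was possible because each group held 1 array. No direction of a member past 1.5-fold reversed under the 10 alternatives. A value was taken as moved when it changed by more than the SD of 0.29 between probe sets of a gene, or a count by more than 1.5 times. The number of members at least 1.5-fold higher ran from 5 to 12. It was 11 without a factor between arrays, against 7.01% of all genes, and 12 with equal medians, against 8.19%. The number at least 2-fold higher was 3 with equal medians, against 1.81% of all genes. It was 0 when the floor was replaced by an offset, against 0.896% of all genes. The number at least 1.5-fold lower was 2 with the mean over probe sets, against 5.42% of all genes. A floor at the 75th percentile gave an HSP70 median of 0.38 and a small heat shock protein median of 0.65. The latter is the ratio of HSPB8 itself. Without probe sets ending in _x_at or _s_at the medians were 0.55 for small heat shock proteins, 0.62 for HSP60 and HSP10 and 0.54 for heat-inducible members. There the small heat shock proteins were only HSPB8, at 1.19, and HSPB2, a bound. HSPE1 had no probe set left, so 0.62 was a bound from a dim probe set of HSPD1 alone. These medians follow from fewer genes measured or other probe sets standing for them. Group medians near 0 changed sign with scaling, among them DNAJB (from -0.06 to 0.06), prefoldin (from -0.00 to 0.09) and the mitochondrial partners (from -0.05 to 0.04). The HSP90 co-chaperone median ran down to 0.01. The median of the members stayed above that of all genes under each alternative, by 0.14 to 0.22. The log2 ratio of HSPH1 ran from 0.96 to 1.14, that of DNAJB9 from -0.90 to -0.66 and that of HSPD1 from 0.08 to 0.62. With 1 array per group, dim probe sets near the floor limit HSPB1, HSPB2, HSPB3, HSPA1L, HSPA12A, DNAJB5 and DNAJB13.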
